A study of Homo sapiens with 12 samples.

Results

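The miR-30 family was followed in small RNA libraries of HCT116 cells, a human colorectal carcinoma line, that lack DROSHA. The members were chosen by name: the 5p arms hsa-miR-30a-5p, hsa-miR-30b-5p, hsa-miR-30c-5p, hsa-miR-30d-5p and hsa-miR-30e-5p, the 3p arms hsa-miR-30a-3p and hsa-miR-30e-3p, and the remaining 3p arms of the family where they had reads, hsa-miR-30b-3p, hsa-miR-30c-1-3p, hsa-miR-30c-2-3p and hsa-miR-30d-3p. These are 11 of the 1277 mature miRNAs with reads, and the prefix for human is left out from here on. In all 4 groups the cells carried the DROSHA knockout and received the plasmid pXC-NLS-DG4 together with a pCK plasmid. That pCK plasmid coded for DROSHA with a belt deletion, for the DROSHA mutant m4 or for wild-type DROSHA, or it was empty. The labels give 4.5 µg for pXC-NLS-DG4 and 4.5 µg for the DROSHA plasmids. They do not say what m4 alters, which residues the belt deletion removes, or what the DG4 plasmid encodes. Each group has 3 libraries, 12 in all, and the labels number the repeats without saying whether they were separate cultures, so p-values here measure the spread between these samples.

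DROSHA is the nuclear RNase III enzyme that, with its partner DGCR8, cuts the hairpin of most miRNAs out of the primary transcript. DICER then removes the loop, and either the 5p or the 3p strand of the remaining duplex can be kept by an Argonaute protein. Both arms thus come from the same hairpin, and the arm that is kept less often is usually degraded. A mature miRNA finds its targets mainly through its seed, bases 2 to 8, so arms with the same seed form a family. The miR-30 family is known in epithelial cells for repressing SNAI1, a driver of the epithelial-mesenchymal transition, and miR-30a-5p is also known for repressing the autophagy gene BECN1.

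The sequences are shown because the results turn on the contrast between the 5p and 3p arms of a hairpin. The 5p arms of mir-30a and mir-30e are nearly identical in sequence, and so are their 3p arms. Of the 11 members, 7 matched a mature sequence in RefSeq (GRCh38.p14), and these are given 5′ to 3′ with the seed in capitals. They fall into 3 groups by seed: the 5p arms, then the 3p arms of mir-30a and mir-30e, then the 3p arms of the mir-30c hairpins.
miR-30a-5p: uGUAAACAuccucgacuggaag
miR-30e-5p: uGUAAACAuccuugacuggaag
miR-30c-5p: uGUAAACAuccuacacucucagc
miR-30a-3p: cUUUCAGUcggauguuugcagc
miR-30e-3p: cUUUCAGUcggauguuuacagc
miR-30c-1-3p: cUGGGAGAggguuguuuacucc
miR-30c-2-3p: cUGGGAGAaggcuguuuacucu

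Counted from 1 at the 5′ end, miR-30a-5p and miR-30e-5p differ by 1 substitution in 22 bases, C13U, with the base of miR-30a-5p given first. The 3p arms of the same hairpins also differ by 1 in 22, G18A. miR-30c-5p differs from miR-30a-5p at 5 of the 22 bases compared, all of them downstream of the seed. How the authors assigned reads that fit several of these sequences is not given in the sources used here, so the division of reads between miR-30a and miR-30e arms is uncertain. miR-30c-5p is encoded by both mir-30c-1 and mir-30c-2, and its reads are listed in full under each.

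Of the hairpins whose arm ratios were tested, 3 are shown with their 5p and 3p arms in capitals, first mir-30a and mir-30e, whose ratios changed with the belt deletion, and then mir-30c-1 for comparison.
mir-30a: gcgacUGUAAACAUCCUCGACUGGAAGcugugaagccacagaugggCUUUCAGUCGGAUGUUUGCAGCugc
mir-30e: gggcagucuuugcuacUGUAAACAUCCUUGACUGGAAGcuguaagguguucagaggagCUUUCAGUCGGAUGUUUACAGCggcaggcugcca
mir-30c-1: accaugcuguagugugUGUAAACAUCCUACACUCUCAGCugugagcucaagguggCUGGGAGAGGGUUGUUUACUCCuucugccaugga

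The arms are separated by 19 bases in mir-30a, 20 in mir-30e and 16 in mir-30c-1. On GRCh38, mir-30a lies at chr6:71403551-71403621 and mir-30c-2 at chr6:71376960-71377031, both on the minus strand, 26519 bases apart in introns of the long non-coding RNA LINC00472. The mir-30e hairpin lies at chr1:40754355-40754446 and mir-30c-1 at chr1:40757284-40757372, both on the plus strand, 2837 bases apart in introns of NFYC, which codes for a subunit of the transcription factor NF-Y. The remaining hairpins, mir-30b and mir-30d, lie 4268 bases apart on chromosome 8, with no host gene on their strand.

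The libraries held 132667 to 407461 reads in the deposited table and 101886 to 332081 after repeated lines were collapsed. The miR-30 arms took 154 to 3563 of these reads per library. Of 6 markers of colon epithelium and carcinoma, all had reads with the belt deletion, m4 and wild type, and 5 with the empty plasmid. In the 12 libraries together miR-21-5p had 437181 reads, miR-200c-3p 885 and miR-200b-3p 707. The others were scarcer, miR-192-5p with 138, miR-141-3p with 24 and miR-194-5p with 14, the last with none in the empty-plasmid libraries. The list, nearly all of it miR-21-5p, summed to 67843 to 79521 scaled reads with the belt deletion and 5828 to 9734 with m4. It summed to 47457 to 102943 with wild type and 1849 to 2555 with the empty plasmid. Of 11 markers of other cell types, 5 to 7 had reads in a group, and their sums ran from 569 to 786, 325 to 628, 479 to 699.7 and 216 to 292 scaled reads in the same groups. These sums moved with the groups, and their part in the miR-30 results was not tested. Over all libraries the endothelial miR-126-3p had 2577 reads, miR-143-3p of smooth muscle and fibroblasts 1839, the liver miR-122-5p 772 and the neuronal miR-9-5p 649, while miR-145-5p had 8 and miR-451a and miR-1-3p had 3 each. The blood markers miR-223-3p and miR-142-3p, the neuronal miR-124-3p and the muscle miR-133a-3p had no read. The table lists miRNAs only, so DROSHA itself was not analysed here. Levels below are scaled reads, that is reads divided by a size factor taken from miRNAs that mature without DROSHA, such as miR-320 and miR-484. This reference was not constant. After scaling, the miR-320 sum was 67967, 153729 and 76448 in the m4 libraries. miR-484 had 420 to 467 scaled reads with the belt deletion and 615 to 833 with the empty plasmid, and miR-877 had 611 to 838 and 724 to 778. Of 15 such arms tested, 2 were called higher with m4 and 1 with the belt deletion over the empty plasmid, and none lower.

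As a family, miR-30 was most abundant with wild-type DROSHA, and its arms were in a different balance with the belt deletion. The 5p arms summed to 566, 915 and 825 scaled reads in the belt deletion libraries, 237, 286 and 416 in the m4 libraries, 3654, 4657 and 2663 in the wild-type libraries and 79.7, 82.1 and 75.0 in the empty-plasmid libraries. The 4 groups did not overlap. The 3p arms summed to 1283, 1399.5 and 1015 scaled reads with the belt deletion, 85.9, 128 and 129 with m4, 583, 392 and 281 with wild type and 36.1, 48.0 and 31.9 with the empty plasmid. In these sums 3p reads outnumbered 5p reads in each belt deletion library and in no library of the other groups. Over all arms the sum was 2001 ± 272 scaled reads with the belt deletion, 427 ± 112 with m4, 4077 ± 1062 with wild type and 118 ± 11.7 with the empty plasmid (SD, n = 3 each). The libraries are from bulk RNA, so a lower level in every cell and fewer cells with active DROSHA cannot be told apart.

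**Figure D1:**
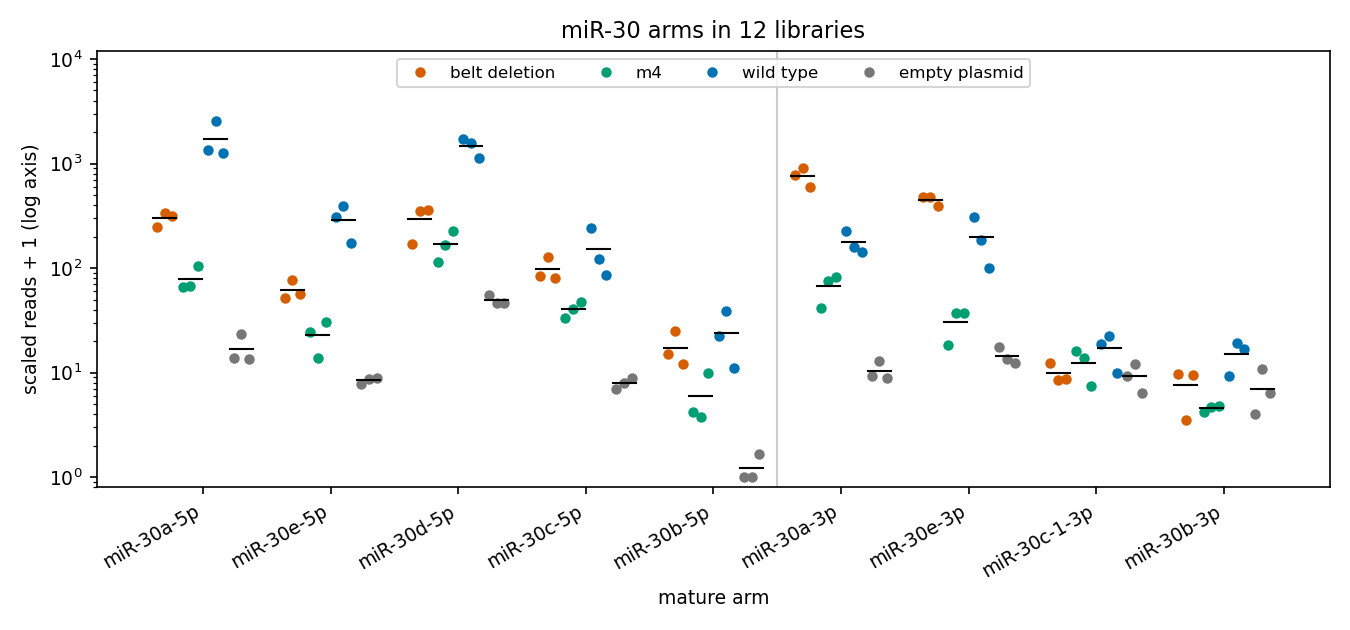
Scaled reads plus 1 (log axis) of the 9 miR-30 arms tested, 1 point per library, with the group mean as a bar. The belt deletion points lie below wild type for miR-30a-5p, miR-30e-5p and miR-30d-5p and above wild type for miR-30a-3p and miR-30e-3p.

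The comparison of the belt deletion with wild type asks how the arms of the family change when DROSHA lacks its belt. The 5p arms of mir-30a, mir-30d and mir-30e fell to 17.5%, 19.9% and 20.9% of the wild-type mean, while the 3p arms of mir-30a and mir-30e rose to 434% and 229% of it. In the edgeR quasi-likelihood test, with Benjamini-Hochberg adjustment over all 310 miRNAs tested and a call at an adjusted p under 0.05, 9 of the 11 arms were tested. miR-30c-2-3p and miR-30d-3p, with 47 and 36 reads over all libraries, did not pass the filter on low counts. Of the 9 arms 2 were called higher with the belt deletion and 3 lower, where 3.23% of all miRNAs tested were called higher and 9.35% lower. Those lower were 3 of the 5 5p arms, and those higher were 2 of the 4 3p arms tested. The median log2 change was -2.26 over the 5p arms and 0.19 over the 3p arms, and 0.04 over all miRNAs tested.

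miR-30a-5p had 246, 337 and 317 scaled reads in the belt deletion libraries, 64.4, 66.5 and 104 in the m4 libraries, 1359, 2529 and 1263 in the wild-type libraries and 12.8, 22.3 and 12.6 in the empty-plasmid libraries. No pair of groups overlapped, and wild type was highest. The log2 change with the belt deletion over wild type was -2.51 (SE 0.34, edgeR adjusted p = 1.79e-08). miR-30a-3p, its partner arm, had 779, 899 and 599 scaled reads in the belt deletion libraries, 40.8, 74.8 and 81.9 in the m4 libraries, 226, 156 and 142 in the wild-type libraries and 8.27, 11.8 and 7.97 in the empty-plasmid libraries. Again no groups overlapped, but here the belt deletion was highest. The log2 change over wild type was 2.12 (SE 0.34, edgeR adjusted p = 1.05e-06). The calls on both arms held in all 21 alternatives run for them.

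miR-30e-5p had 51.0, 75.2 and 55.5 scaled reads in the belt deletion libraries, 23.6, 12.9 and 29.4 in the m4 libraries, 304, 390.3 and 175 in the wild-type libraries and 6.77, 7.65 and 7.97 in the empty-plasmid libraries. The groups did not overlap, and wild type was highest. Its log2 change with the belt deletion was -2.26 (SE 0.38, edgeR adjusted p = 2.59e-06). miR-30e-3p had 474, 482 and 393 scaled reads in the belt deletion libraries, 17.2, 36.0 and 35.8 in the m4 libraries, 307, 183 and 99.2 in the wild-type libraries and 16.5, 12.5 and 11.3 in the empty-plasmid libraries. The belt deletion was highest without overlap, and the highest empty-plasmid library lay just below the lowest m4 library. The log2 change over wild type was 1.19 (SE 0.36, edgeR adjusted p = 0.0133). This call was lost in 5 of 21 alternatives, which gave 0.87 to 1.15 with adjusted p from 0.0513 to 0.205: without wild type replicate 2 or 3, without belt deletion replicate 1 or 2, and with scaling by the summed reference reads.

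miR-30d-5p, known for repressing the glycosyltransferase gene GALNT7, had 171, 351 and 362 scaled reads in the belt deletion libraries, 114, 164 and 228 in the m4 libraries, 1728, 1578 and 1129 in the wild-type libraries and 54.2, 45.2 and 45.8 in the empty-plasmid libraries. The belt deletion and m4 libraries overlapped, and both lay below all wild-type libraries. The log2 change of the belt deletion over wild type was -2.33 (SE 0.34, edgeR adjusted p = 1.13e-07).

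The miR-30c-5p arm, known for repressing the matrix gene CCN2, had 83.6, 128 and 79.3 scaled reads in the belt deletion libraries, 32.2, 39.7 and 46.1 in the m4 libraries, 241, 122 and 85.6 in the wild-type libraries and 6.02, 6.95 and 7.97 in the empty-plasmid libraries. The belt deletion and wild-type libraries overlapped, and the log2 change between them was -0.63 (SE 0.37, edgeR adjusted p = 0.276). miR-30b-5p was scarce, with 14.1, 23.8 and 11.1 scaled reads in the belt deletion libraries, 3.22, 2.77 and 8.96 in the m4 libraries and 21.4, 37.8 and 10.1 in the wild-type libraries. Over the 3 empty-plasmid libraries it had 1 read in all. Its log2 change with the belt deletion over wild type was -0.48 (SE 0.53, edgeR adjusted p = 0.611). A p above the threshold does not show that the levels were alike.

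Among the scarce 3p arms, miR-30c-1-3p averaged 8.88 ± 2.22 scaled reads with the belt deletion, 11.5 ± 4.50 with m4, 16.1 ± 6.45 with wild type and 8.24 ± 2.91 with the empty plasmid (SD, n = 3 each). miR-30b-3p averaged 6.61 ± 3.56 scaled reads with the belt deletion, 3.58 ± 0.32 with m4, 14.0 ± 5.06 with wild type and 6.02 ± 3.42 with the empty plasmid. Neither was called between the belt deletion and wild type, with log2 changes of -0.81 and -0.99 and edgeR adjusted p of 0.354 and 0.294. miR-30c-2-3p summed to 21 raw reads in the belt deletion libraries, 4 in the m4 libraries, 16 in the wild-type libraries and 6 in the empty-plasmid libraries. miR-30d-3p summed to 5, 6, 24 and 1 raw reads in the same groups, too few for a comparison at this depth.

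**Figure D2:**
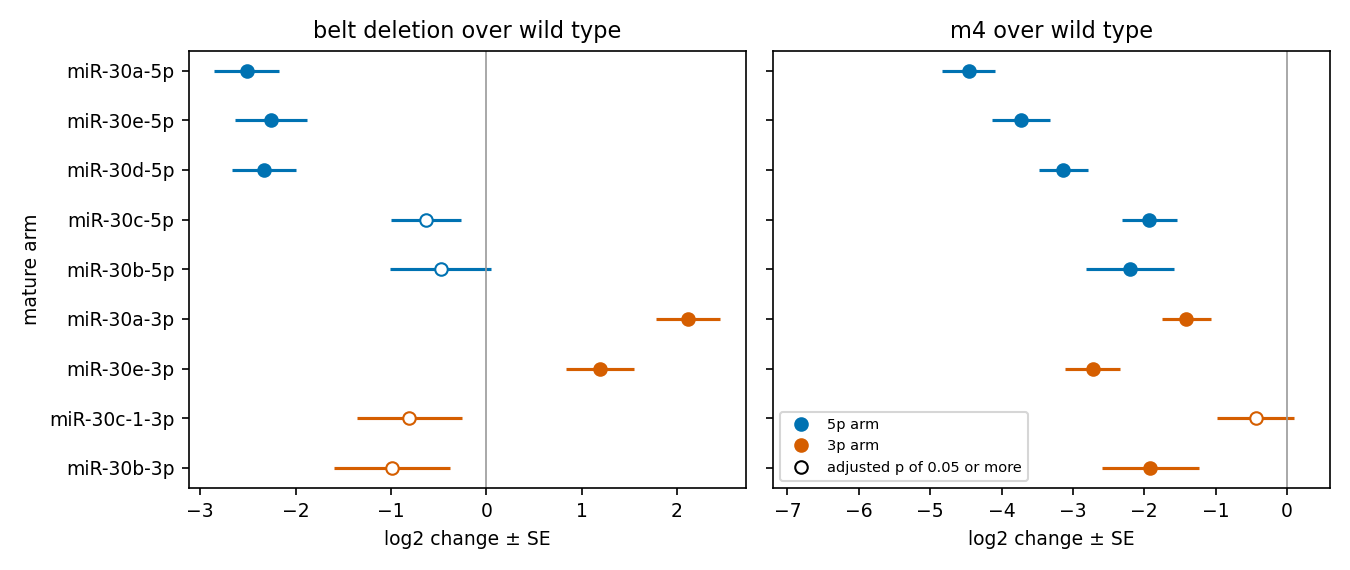
Log2 change of each tested miR-30 arm with the belt deletion over wild type (left) and m4 over wild type (right), with bars of 1 SE from edgeR and open points for an adjusted p of 0.05 or more. With the belt deletion, 3 5p arms lie at -2.26 or below and miR-30a-3p and miR-30e-3p above 0. With m4 all arms lie below 0.

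Because both arms of a hairpin are counted in the same library, their ratio needs no scaling between libraries. The 5p/3p ratio was tested with edgeR on the 2 arms of each of 83 hairpins, among them mir-30a, mir-30e, mir-30c-1 and mir-30d. Some of the 83 share reads and are not distinct, such as mir-9-1, mir-9-2 and mir-9-3, which had equal values. The hairpins mir-423 and mir-3184, which also share reads, were both called for wild type over the empty plasmid. In mir-30a the 3p arm was the minor product with wild type and the major product with the belt deletion. It made up 76.0% (95% Wilson interval 73.4 to 78.3), 72.7% (69.9 to 75.4) and 65.4% (62.5 to 68.1) of the mir-30a reads in the belt deletion libraries. It made up 38.8% (29.7 to 48.7), 52.9% (45.1 to 60.7) and 44.1% (36.3 to 52.3) in the m4 libraries. In the wild-type libraries its share was 14.3% (12.5 to 16.2), 5.83% (4.75 to 7.13) and 10.1% (8.55 to 11.9). With the empty plasmid it was 39.3% (23.6 to 57.6), 34.7% (22.9 to 48.7) and 38.7% (23.7 to 56.2). The belt deletion libraries were highest and the wild-type libraries lowest, without overlap with the other groups. Intervals of this kind cover counting error within a library only and leave out the spread between libraries. They take each read as independent, and reads were not counted by molecular identifiers.

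Behind these shares stand 921 5p and 2304 3p reads with the belt deletion, 213 and 183 with m4, 3670 and 403 with wild type, and 68 and 40 with the empty plasmid. The 5p/3p ratio of mir-30a was 23.7-fold lower with the belt deletion than with wild type, a log2 change of -4.57 (SE 0.46, edgeR adjusted p = 9.9e-10). It was the hairpin with the largest change and the lowest p of the 83. In mir-30e the ratio was 11.5-fold lower, with a log2 change of -3.52 (SE 0.47, edgeR adjusted p = 5.33e-07), the second lowest p. These were 2 of 5 hairpins called, 6.02% of those tested. The median change over all 83 hairpins was 0.23, with quartiles of -0.27 and 0.93. The calls on mir-30a and mir-30e held in each of the 17 alternatives run that tested them.

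In mir-30e the 3p arm made up 90.3% (95% Wilson interval 87.6 to 92.4), 86.5% (83.0 to 89.4) and 87.6% (84.6 to 90.2) of the reads in the belt deletion libraries. With m4 the shares were 42.1% (27.9 to 57.8), 73.6% (60.4 to 83.6) and 54.9% (41.4 to 67.7). With wild type they were 50.2% (45.9 to 54.5), 32.0% (27.1 to 37.3) and 36.2% (30.4 to 42.4). With the empty plasmid they were 71.0% (53.4 to 83.9), 62.1% (44.0 to 77.3) and 58.6% (40.7 to 74.5). The belt deletion libraries lay above all others, while m4 overlapped both wild type and the empty plasmid. The read sums were 183 5p and 1384 3p with the belt deletion, 59 and 83 with m4, 628 and 448 with wild type, and 32 and 57 with the empty plasmid.

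The other tested hairpins showed no call between the belt deletion and wild type. In mir-30d the 5p arm made up nearly all reads, and with 5 3p beside 898 5p reads with the belt deletion, 6 beside 462 with m4, 24 beside 3332 with wild type and 1 beside 206 with the empty plasmid. The log2 change of its ratio was 0.21 (SE 0.61, edgeR adjusted p = 0.942). In mir-30c-1 the 3p share was 8.81 ± 3.24% with the belt deletion, 22.9 ± 9.92% with m4, 10.5 ± 4.14% with wild type and 53.1 ± 11.5% with the empty plasmid (SD, n = 3 each). The log2 change with the belt deletion over wild type was 0.17 (SE 0.56, edgeR adjusted p = 0.942). Since the 5p reads of mir-30c-1 may come from mir-30c-2 as well, this share is not that of 1 hairpin. The mir-30b and mir-30c-2 hairpins had too few reads in some libraries to be tested.

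**Figure D3:**
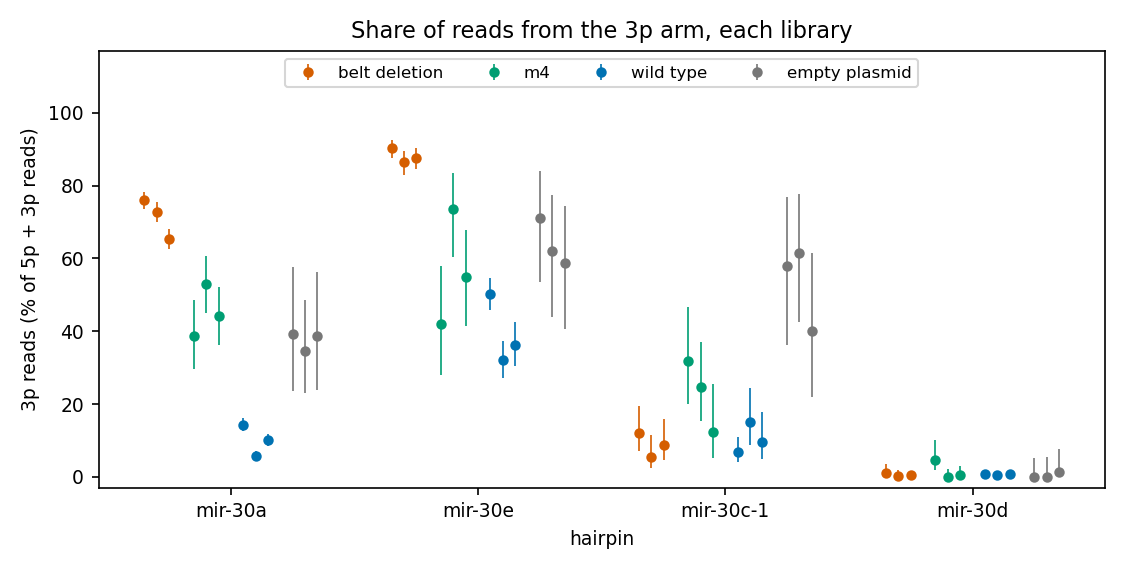
Share of the 3p arm in the reads of 4 mir-30 hairpins, 1 point per library with its 95% Wilson interval. For mir-30a the belt deletion libraries reach 65.4 to 76.0% and the wild-type libraries 5.83 to 14.3%, and for mir-30e the belt deletion libraries lie above all others.

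**Figure D4:**
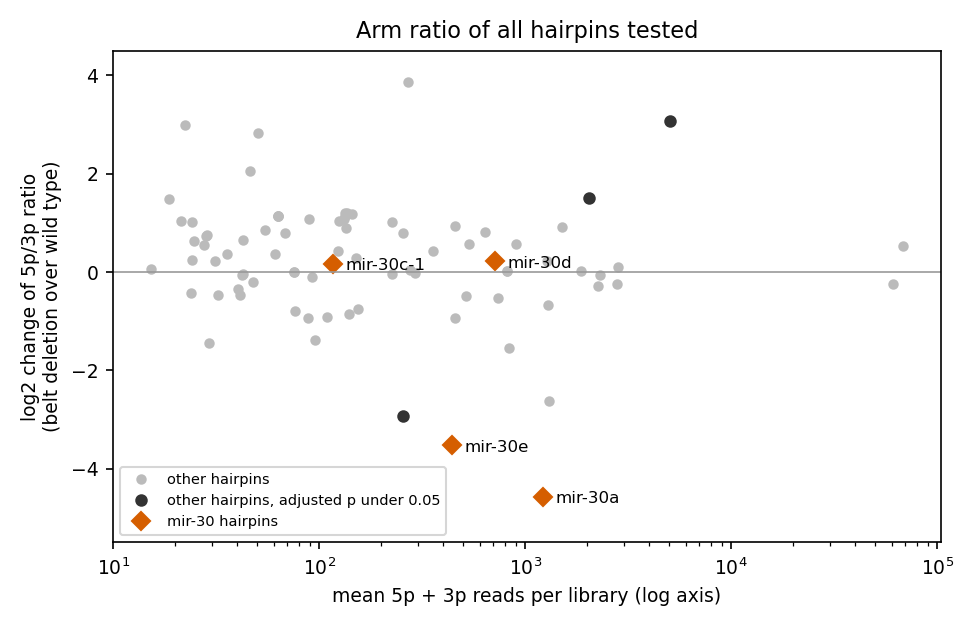
Log2 change of the 5p/3p ratio with the belt deletion over wild type for the 83 hairpins tested, against the mean reads of both arms per library (log axis). The mir-30a and mir-30e hairpins lie at -4.57 and -3.52, and mir-30c-1 and mir-30d near 0.

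The comparison of m4 with wild type asks what the m4 mutant leaves of the family. Of the 9 arms tested, 8 were called lower for m4 over wild type and none higher, where 34.2% of all miRNAs tested were called lower and 3.55% higher. All 5 5p arms were called lower. miR-30a-5p fell to 4.55% of the wild-type mean, with a log2 change of -4.46 (SE 0.37, edgeR adjusted p = 7.49e-17), the lowest p of the 310 miRNAs. miR-30e-5p fell by 3.72 (SE 0.41, edgeR adjusted p = 2.77e-12) and miR-30d-5p by 3.13 (SE 0.35, adjusted p = 3.58e-12) on the log2 scale. miR-30b-5p and miR-30c-5p fell by 2.20 and 1.93, with edgeR adjusted p of 0.00225 and 2.1e-05. The miR-30b-5p call was lost without wild type replicate 2 (-1.71, adjusted p = 0.0532), in a range over its alternatives of 0.000613 to 0.120.

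The 3p arms miR-30e-3p and miR-30a-3p fell by 2.72 and 1.41 on the log2 scale with m4, with SE of 0.39 and 0.34 and edgeR adjusted p of 9.38e-09 and 3.78e-04. miR-30b-3p fell by 1.91 (SE 0.68, edgeR adjusted p = 0.0193). That call rested on 10 reads with m4 and 31 with wild type and was lost in 6 of 20 alternatives, among them those without wild type replicate 2 or 3, with adjusted p up to 0.227. miR-30c-1-3p was not called, with a log2 change of -0.44 and an edgeR adjusted p of 0.567. The larger fall of the 5p arm than of the 3p arm was tested within mir-30a, where the 5p/3p ratio was 7.87-fold lower with m4 (log2 change -2.98, SE 0.47, edgeR adjusted p = 2.46e-05). It had the lowest p of the 83 hairpins, of which 3.61% were called, and held in all 17 alternatives. The ratio of mir-30e changed by -1.07 (SE 0.52, edgeR adjusted p = 0.254), which was no call.

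The mutants were also set against each other. Of the 9 arms, 6 were called higher for the belt deletion over m4 and none lower, where 25.8% of all miRNAs tested were called higher and 1.29% lower. The 3p arms led: miR-30e-3p was 15.1-fold and miR-30a-3p 11.5-fold higher, with log2 changes of 3.92 (SE 0.40) and 3.53 (SE 0.36) and edgeR adjusted p of 3.49e-13 and 3.03e-13. Among the 5p arms, miR-30a-5p was higher by 1.94, miR-30b-5p by 1.72, miR-30e-5p by 1.47 and miR-30c-5p by 1.30 on the log2 scale, with edgeR adjusted p of 1.61e-06, 0.0261, 0.00174 and 0.00505. miR-30b-5p, with 13 reads over the m4 libraries, lost the call in 7 of 21 alternatives, and miR-30c-5p in 3 of 21. Both lost it under total counts, with the summed reference and without belt deletion replicate 2. Without that library the changes were 1.36 and 1.04 (edgeR adjusted p = 0.171 and 0.0576). miR-30b-5p also lost it without m4 replicate 1 or 2 (1.52 and 1.39), with DESeq2 and without the filter. Over the alternatives the adjusted p ran from 0.00747 to 0.328 for miR-30b-5p and from 0.00237 to 0.517 for miR-30c-5p. miR-30d-5p differed by 0.80 (SE 0.33, edgeR adjusted p = 0.0571), and was called in 5 of 21 alternatives, including those without m4 replicate 3 (1.07), belt deletion replicate 1 (1.06) or empty plasmid replicate 1 (0.82). 

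Between the mutants, the 5p/3p ratio of mir-30e was 5.48-fold lower in the belt deletion libraries (log2 change -2.46, SE 0.53, edgeR adjusted p = 0.00415), and that of mir-30a 3.01-fold lower (-1.59, SE 0.46, adjusted p = 0.0285). Of all hairpins 7.23% were called in this comparison. The mir-30a call was lost in 5 of 17 alternatives, among them without belt deletion replicate 1 or 2 and without m4 replicate 1 or 3, at -1.41 to -1.60 with adjusted p from 0.0604 to 0.174. In mir-30c-1 the change was 1.62 (SE 0.60, edgeR adjusted p = 0.108), not a call.

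Against the empty plasmid, the same 7 of 9 arms were called higher with the belt deletion, with m4 and with wild type, where 42.9%, 41% and 42.6% of all miRNAs tested were. No miR-30 arm was called lower, where 0.323%, 0.968% and 0.645% of all were. These comparisons share the empty-plasmid libraries. The 7 are all 5p arms together with miR-30a-3p and miR-30e-3p. miR-30a-3p was 80.1-fold higher with the belt deletion (log2 change 6.32, SE 0.42, edgeR adjusted p = 1.07e-22), 6.95-fold higher with m4 (2.80, SE 0.38, adjusted p = 1.96e-09) and 18.5-fold higher with wild type (4.21, SE 0.39, adjusted p = 3.16e-16). miR-30a-5p was higher by 4.23 (SE 0.38), 2.29 (SE 0.36) and 6.74 (SE 0.42) in the same order of groups. For miR-30d-5p, which kept the most reads of the family in cells without DROSHA, the log2 changes were 2.60, 1.80 and 4.93. For miR-30e-5p they were 2.99, 1.53 and 5.25, and for miR-30e-3p 5.05, 1.14 and 3.86. For miR-30c-5p they were 3.77, 2.47 and 4.40.

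For miR-30b-5p the ratio rests on 1 read with the empty plasmid, against 48 with the belt deletion, 13 with m4 and 48 with wild type. After division by the size factors the ratios were 66.0 (95% exact interval 11.3 to 2662), 19.9 (2.98 to 845) and 89.8 (15.4 to 3620) in this order. The intervals are from reads pooled over the libraries of a group and leave out the spread between libraries. The call of miR-30e-3p with m4 (edgeR adjusted p = 0.0148) was the least firm of the 7: it was lost in 6 of 21 alternatives, without m4 replicate 2 or 3, without empty plasmid replicate 2 or 3, and with TMM or DESeq2 scaling, at 0.45 to 1.09 with adjusted p from 0.0637 to 0.315. miR-30b-3p and miR-30c-1-3p were not called against the empty plasmid in any of the 3 comparisons, though miR-30b-3p was called with wild type without empty plasmid replicate 2 (log2 change 1.70, edgeR adjusted p = 0.0480, in a range up to 0.610 over its alternatives). 

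Arm ratios were also compared with those of cells given the empty plasmid, and with wild type 2 of the 4 tested mir-30 hairpins were called. With wild type over the empty plasmid the 5p/3p ratio was higher in mir-30c-1, by 3.40 on the log2 scale (SE 0.63, edgeR adjusted p = 2.07e-04), and in mir-30a, by 2.50 (SE 0.54, adjusted p = 0.00103), where 12% of the hairpins were called. The mir-30e ratio was not called (1.44, SE 0.56, edgeR adjusted p = 0.0957), except without wild type replicate 1 or m4 replicate 2 (adjusted p = 0.0427 and 0.0442, in a range up to 0.353). The mir-30d ratio was not called either, at -0.09 (SE 0.27, edgeR adjusted p = 0.847). With the belt deletion over the empty plasmid 10.8% were called, among them mir-30c-1, with a ratio higher by 3.57 (SE 0.63, edgeR adjusted p = 1.08e-04), and mir-30a and mir-30e, with changes of -2.07 (SE 0.52, adjusted p = 0.00581) and -2.08 (SE 0.57, adjusted p = 0.0108). The mir-30e call was lost without empty plasmid replicate 2 or 3 (-2.02 and -1.91, adjusted p = 0.0614 and 0.0859, in a range from 0.00375 to 0.0859). With m4 over the empty plasmid 2.41% were called and no mir-30 hairpin was, with adjusted p from 0.0903 to 0.827; without m4 replicate 1, mir-30c-1 was called (2.31, edgeR adjusted p = 0.0267, in a range up to 0.299). These ratios rest on 19 to 49 reads of a hairpin per empty-plasmid library for mir-30a, mir-30e and mir-30c-1. The 5p reads of mir-30c-1 may come from mir-30c-2 as well, so its ratio is not that of 1 hairpin.

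Within the 5p arms, which share a seed, the makeup was compared between groups. With 3 libraries per group the permutation test used could not reach a p under 0.05, so no comparison could be called. The miR-30a-5p arm made up 39.6 ± 3.49% of the family's 5p reads with the belt deletion, 25.1 ± 1.97% with m4, 46.3 ± 8.61% with wild type and 19.99 ± 6.19% with the empty plasmid (SD, n = 3 each). miR-30d-5p made up 37.5 ± 6.88%, 53.4 ± 4.88%, 41.2 ± 6.79% and 61.4 ± 6.42% in the same order. miR-30a-5p and miR-30d-5p were thus the leading arms in each group, and miR-30d-5p had the higher mean share with m4 and with the empty plasmid. miR-30c-5p made up 12.8 ± 2.78% with the belt deletion, 12.8 ± 1.53% with m4, 4.15 ± 2.15% with wild type and 8.88 ± 1.58% with the empty plasmid. Both mutants lay above every wild-type library for this arm. miR-30e-5p stayed between 7.18% and 9.48% in the group means, and miR-30b-5p between 0.295% and 2.15%. Of 30 comparisons of a share between groups, 17 had no overlap. Each of these 17 had a two-sided exact permutation p of 0.1, the smallest that 3 against 3 can give. After Benjamini-Hochberg adjustment over the 30 it was 0.176. The shares of a library depend on each other, so the comparisons were not independent. The same count was not made for other families.

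**Figure D5:**
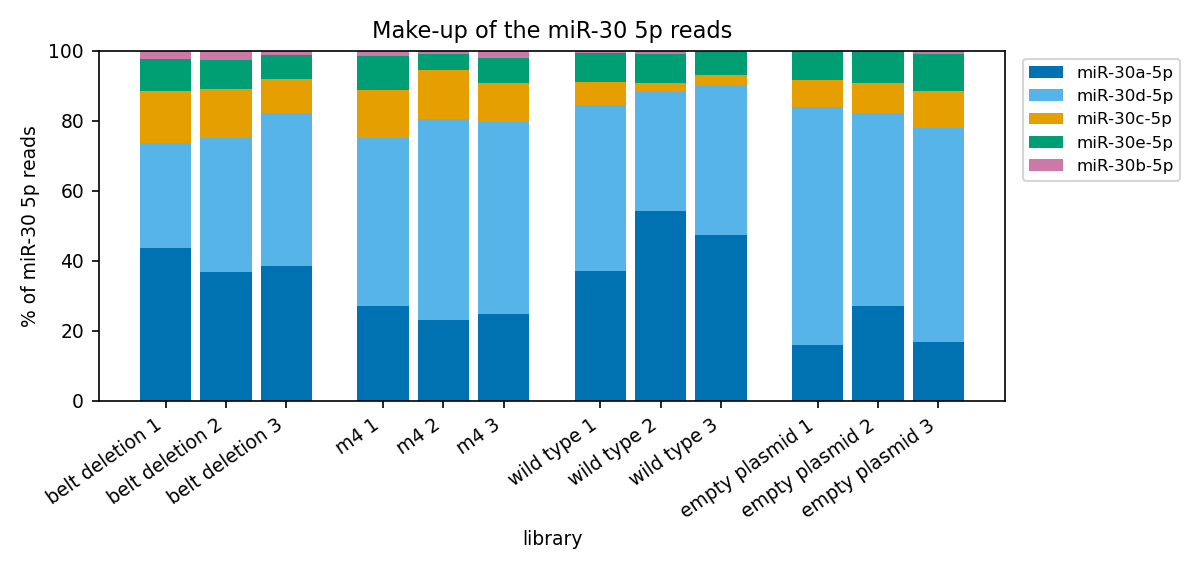
Share of each 5p arm in the reads of all miR-30 5p arms, 1 bar per library. miR-30a-5p and miR-30d-5p fill most of every bar, and the miR-30c-5p segment is larger in belt deletion and m4 libraries than in wild-type libraries.

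Other families of several hairpins gave a setting for these counts. With the belt deletion over wild type, 1 of 10 tested let-7 arms and 3 of 10 arms in the superfamily of miR-10, which also holds the miR-99 and miR-125 miRNAs, were called lower and none higher, with median log2 changes of -0.41 and -0.55. Over all 9 tested miR-30 arms, 2 were higher and 3 lower and the median was -0.81, and over the 5p arms alone it was -2.26. With m4 over wild type the median was -2.20 over all tested miR-30 arms, with 8 of 9 called lower, -2.05 for let-7, with 8 of 10, and -1.85 for the miR-10 superfamily, with 7 of 10. The difference between families was not tested.

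Of the other 66 miRNAs with a mean of at least 100 scaled reads, the 5 with the most similar profile to miR-30a-5p over the 12 libraries were miR-221-3p, miR-107, miR-103a-3p, miR-151a-3p and miR-221-5p. Likeness was the root mean square difference of log2(scaled reads + 1) after each profile was centred on its mean, and it was 0.61 for miR-221-3p and 0.81 to 0.84 for the others, where the median candidate had 1.49. The profiles closest to the summed miR-30 5p arms were those of miR-221-3p (0.37), miR-7-5p (0.46), miR-151a-3p (0.46), let-7g-5p (0.58) and miR-24-3p (0.66), with a median of 1.31. miR-221-3p, nearest to both, averaged 711 scaled reads with the belt deletion, 181 with m4, 2638 with wild type and 64.4 with the empty plasmid.

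The levels depend on the scaling more than the ratios do. The median of all miRNAs moved by 1.05 on the log2 scale for m4 over wild type, and by nearly as much in the other direction for the belt deletion over m4, when libraries were scaled by total counts. Against the empty plasmid it moved by -0.54 to -0.86 under TMM and DESeq2 scaling, and for the belt deletion over wild type by at most 0.14 in size under any scaling. Under total counts, 133 miRNAs were called higher and 60 lower with m4 than with wild type, against 11 and 106 with the reference scaling; the miR-30 arms were then 0 higher and 4 lower. The m4 calls lost under total counts were those of miR-30b-5p, miR-30b-3p, miR-30a-3p (-0.41, edgeR adjusted p = 0.286) and miR-30c-5p (-0.85, adjusted p = 0.0560). For the belt deletion over m4 the split was 47 higher and 121 lower under total counts, against 80 and 4, and in the miR-30 family 3 higher and 1 lower, the last being miR-30c-1-3p, and the change of miR-30d-5p, not called, turned to -0.19. The call of miR-30e-5p for the belt deletion over m4 was lost under total counts (0.39, edgeR adjusted p = 0.411) and the summed reference (1.02, adjusted p = 0.182), and that for m4 over the empty plasmid under TMM (0.88, adjusted p = 0.0536) and DESeq2 (0.98, adjusted p = 0.0680). For the belt deletion over wild type TMM gave 26 higher and 29 lower, against 10 and 29, with miR-30 at 2 and 3; scaling by the summed reference reads gave 5 and 24, with miR-30 at 1 and 3. Against the empty plasmid total counts gave 109 higher and 33 lower with the belt deletion and 123 and 71 with wild type, TMM gave 84 and 19 with m4, and no miR-30 arm was called lower.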

How the data were processed

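The authors deposited 1 table of read counts per miRNA and hairpin for all 12 libraries, made from 10 µg of total RNA cut out of a 15% gel at 19 to 24 nt, per the labels' protocols. The submitters' processing notes name cutadapt, Bowtie2 and hg38. The counting tool, its annotation and the treatment of reads with several matches are not given in the sources used here. Blank cells, 42.7% of the table, were read as 0. Lines that repeat a mature miRNA for several hairpins were collapsed, and 9 pairs of names with near-equal reads were merged (names above 120 reads, within 5 reads or 5%). The depth of 101886 to 332081 reads per library limits the precision of scarce arms.

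Counts were tested with edgeR 4.0.16 in R 4.3.3 (quasi-likelihood, 12 libraries in 1 fit, 310 of 1277 miRNAs after filterByExpr, Benjamini-Hochberg, call at an adjusted p under 0.05). Size factors were the median ratio over miRNAs that mature without DROSHA (the sum of miR-320, the mirtrons miR-877, miR-1224 and miR-1226, and miR-484, with at least 20 reads in every library). For 5p/3p ratios the same test ran on both arms of hairpins with at least 10 reads per library and 10 of each arm overall. Hairpins with shared reads were not merged for this test. The SE was taken as the size of the log2 change over the root of its F statistic. The 3p shares of a hairpin have 95% Wilson intervals, and the shares among the 5p arms have exact permutation tests. Alternatives were TMM, DESeq2 1.42.0, total counts, other reference sums, no filter, limma 3.58.1 on ratios with a pseudocount of 0.5, a minimum of 50 reads, the replicate block and leaving out each library. The text names each miR-30 arm and hairpin, and the 5 miRNAs nearest in profile to miR-30a-5p and to the 5p sum among those with a mean of at least 100 scaled reads. The members, lists and tests were chosen with earlier results of these data known. The edgeR tests of levels and ratios were also run on simulated data, with changes set in the m4 libraries and a fixed spread. The other statistics were not tested in this way.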

Additional observations from a re-analysis of the deposited data

How the results depend on the processing

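Deviations from the group means correlated at -0.25 to 0.13 between same-numbered libraries, over 0.1 in 2 of 18 pairs. Differently numbered libraries were not compared in this way, so whether the replicate numbers pair the samples was not settled. With the replicate block the calls stayed in number, at 7 arms each for the belt deletion, m4 and wild type over the empty plasmid, 8 for m4 over wild type, 5 for the belt deletion over wild type and 6 over m4, and 3, 0, 2, 1, 2 and 2 hairpin ratios in the same order. Leaving out 1 library gave 7 to 7, 6 to 7 and 7 to 9 arms against the empty plasmid in that order, 7 to 9 for m4 over wild type, 4 to 6 for the belt deletion over wild type and 4 to 7 over m4. Ratio calls were then 2 to 3, 0 to 1, 2 to 3, 1 to 1, 2 to 2 and 1 to 2, and shares without overlap 17 to 20. Total counts left 4 arms for m4 over wild type, and the summed reference left 3 for the belt deletion over m4. With 50 reads per library the ratio calls were 0 in the 5 comparisons that had any, since of the miR-30 hairpins only mir-30d was tested. Applying that minimum to the compared groups only, a choice made after seeing the data, also left hairpins untested. It gave 0 for wild type over the empty plasmid, where only mir-30d was tested. For the belt deletion over the empty plasmid it gave 0, with no mir-30 hairpin tested. For the belt deletion over m4 it gave 1, mir-30a, with mir-30e not tested. limma gave 1 for the belt deletion over m4. Leaving out hairpins with shared reads gave 1 for wild type over the empty plasmid, since that rule removes mir-30c-1. Under total counts the log2 change of the 5p sum was 2.49 for the belt deletion and 4.69 for wild type over the empty plasmid, -2.48 for m4 over wild type and 0.28 for the belt deletion over m4; for the 3p sum it was 4.17, 2.55, -0.82 and 2.45. The cause of these shifts was not tested.

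The values that turned sign were all uncalled, and the cause was not tested. miR-30c-1-3p turned for m4 over the empty plasmid (TMM -0.11, DESeq2 -0.0073), for m4 over wild type (total counts 0.60) and for the belt deletion over the empty plasmid (TMM -0.61, DESeq2 -0.65, total counts -0.67, and -0.11 to 0.42 leaving out 1 library). miR-30b-3p turned for the belt deletion over the empty plasmid (TMM -0.51, DESeq2 -0.56, total counts -0.62, and -0.12 to 0.71 leaving out 1 library). miR-30d-5p turned for the belt deletion over m4 under total counts (-0.19). Leaving out 1 library also gave -0.86 to 0.018 for miR-30b-5p with the belt deletion over wild type, -0.16 to 0.53 for the mir-30c-1 ratio in that comparison and -0.035 to 0.88 for the mir-30e ratio with m4 over the empty plasmid. The mir-30d ratio, with few 3p reads, then ran from -1.75 to 0.60 for the belt deletion, -2.90 to 1.02 for m4 and -1.96 to 0.38 for wild type over the empty plasmid, -1.62 to 1.13 for m4 over wild type, -0.012 to 0.61 for the belt deletion over wild type and -0.91 to 1.84 over m4; limma gave 0.52 for wild type over the empty plasmid and -0.025 for the belt deletion over wild type. Of the other values for single arms, ratios and family sums, 1441 kept direction and, where there was a test, side of the threshold. For 42 the call was lost, 10 passed the threshold, and 8 family sums moved in size.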

Other observations

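Of the 83 hairpins, 3 others had a called 5p/3p ratio between the belt deletion and wild type. The ratio of mir-216a was lower, with a log2 change of -2.93 (mean 3p share 95.7% with the belt deletion and 79.6% with wild type, edgeR adjusted p = 0.0120), in the direction of mir-30a and mir-30e. The ratios of mir-10a and mir-27a were higher, by 3.07 and 1.51 (edgeR adjusted p = 5.84e-04 and 0.0269). In mir-27a, the mean 3p share was 32.1% with the belt deletion and 57.2% with wild type. In mir-10a it was only 0.0487% with the belt deletion and 0.442% with wild type, so that change lay in a trace arm.

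The miRNAs nearest in profile to miR-30a-3p, a comparison added after its values were seen, were miR-148a-3p (root mean square difference 0.56), miR-28-3p (0.60), miR-27b-3p (0.60), miR-1307-3p (0.68) and miR-183-5p (0.80), where the median candidate had 1.67. The nearest, miR-148a-3p, averaged 3896 scaled reads with the belt deletion, 832 with m4, 2170.2 with wild type and 97.5 with the empty plasmid.

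The scarce mir-30b hairpin had 48 5p and 22 3p reads with the belt deletion, 13 and 10 with m4, 48 and 31 with wild type, and 1 and 26 with the empty plasmid.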
